A study of Mus musculus with 8 samples.

Results

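The glycine cleavage system, the enzymes of serine synthesis and the folate enzymes that take up their one-carbon units were examined in mammary epithelium at pregnancy day 14.5, in control mice and in mice with a conditional knockout of Bmpr1a (cKO). The 10 members were Gldc, Amt, Gcsh, Dld, Phgdh, Psph, Shmt1, Shmt2, Mthfd1 and Mthfd2, of 55933 genes in the deposited table. They were chosen by pathway with the cKO and control values of these libraries in view, so their differences between the groups are given as a description with no test. Each gene had a single row, and all 10 passed the filter on low values, set at 0.5 FPKM for the mean of the 8 libraries (FPKM counts fragments for each kilobase of a gene after scaling for depth).

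RNA-seq was carried out on 4 control and 4 cKO females on a C57BL/6 background, with 1 library per mouse. The cKO mice carried K14-rtTA, teto-Cre and floxed Bmpr1a alleles (fl/fl), and doxycycline in the drinking water induced Cre in cells with an active K14 promoter, which in this gland are mainly myoepithelial. Controls were littermates, which the sample labels call WT; the alleles they carried and whether they drank doxycycline are not given in the sources used here. Glands were digested with collagenase and hyaluronidase, a step meant to remove fat. The epithelial preparation was not sorted, so luminal and myoepithelial RNA were measured together. Gene-assigned reads numbered 16456480 to 18778823 for a control library and 16123108 to 19896988 for a cKO library. Where 4 values of a group are listed, they follow the order of replicates 1 to 4.

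Bmpr1a, the targeted receptor gene, was 10.6, 11.7, 8.74 and 9.52 FPKM in the control libraries and 12.0, 12.0, 10.2 and 10.4 FPKM in the libraries labelled cKO. The groups overlapped. The antisense gene Gm17110 lies within Bmpr1a, and strand-specific counting is not stated. The RNA was not lower in the cKO libraries, so the values of this gene do not check the labels, and every direction given here rests on them. The library labelled cKO replicate 3 stood apart from the other cKO libraries for several members. The main results that moved by over 1.5 times without it are given with and without it. It was picked out by its values for these genes, so shifts on leaving it out follow in part from that choice.

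Serine is made from a glycolytic intermediate in the cytosol, and serine hydroxymethyltransferase then splits it into glycine and a one-carbon unit carried by folate. The glycine cleavage system is a mitochondrial complex that breaks glycine down and passes on another such unit. In the pregnant gland, growing epithelium needs one-carbon units for nucleotides, and milk protein synthesis draws on serine and glycine.

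Gldc encodes the P protein of the cleavage system, the decarboxylase that acts on glycine itself, and lies at chr19:30098447-30175429 on the minus strand (GRCm38). Its level was 1.84, 1.45, 2.53 and 1.94 FPKM in the control libraries. It was 4.31, 7.44, 12.3 and 11.8 FPKM in the cKO libraries. All 4 cKO libraries lay above all 4 controls, with cKO replicate 1 the nearest to them and replicates 3 and 4 the highest. The group means were 1.94 ± 0.446 FPKM in control and 8.96 ± 3.79 FPKM in cKO (SD, n = 4), a ratio of 4.62. On the log2(FPKM + 1) scale, which understates changes of low genes, the difference was 1.68 (SE 0.27). It was 1.34 between replicates 1 and 2 of each group and 2.02 between replicates 3 and 4, and 1.51 (SE 0.27) without cKO replicate 3. Between 153 and 1337 reads lay on Gldc in a library. In bulk RNA, more or fewer cells of a type and more or less RNA per cell cannot be told apart.

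Amt encodes the T protein, the aminomethyltransferase that hands the one-carbon unit to folate. Its level was 5.66, 6.18, 7.03 and 5.90 FPKM in the control libraries and 7.93, 8.28, 9.46 and 9.28 FPKM in the cKO libraries. The groups did not overlap, although the gap was narrow beside that of Gldc. The means were 6.19 ± 0.597 and 8.74 ± 0.746 FPKM (SD, n = 4), and the log2 difference was 0.44 (SE 0.08).

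Gcsh encodes the H protein, the lipoate-bearing carrier that shuttles between the other components. It ranged from 16.8 to 21.4 FPKM in control and from 20.6 to 25.9 FPKM in cKO. The groups overlapped, since cKO replicate 1 lay below control replicate 4, and the log2 difference was 0.29 (SE 0.10). Dld encodes the L protein, the dihydrolipoamide dehydrogenase that other mitochondrial complexes share. It was the steadiest of the 10 genes, at 31.2 ± 0.935 FPKM in control and 31.7 ± 1.20 FPKM in cKO (SD, n = 4). Its log2 difference was 0.03 (SE 0.05), or 0.0010 (SE 0.06) without cKO replicate 3, and turned to -0.03 when each library was scaled to the same sum of FPKM. The subunits of the same complex therefore differed in size of change, and the ratio of Gldc to Gcsh had a mean of 0.102 ± 0.0167 in control libraries and 0.381 ± 0.157 in cKO libraries (SD, n = 4).

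**Figure D1:**
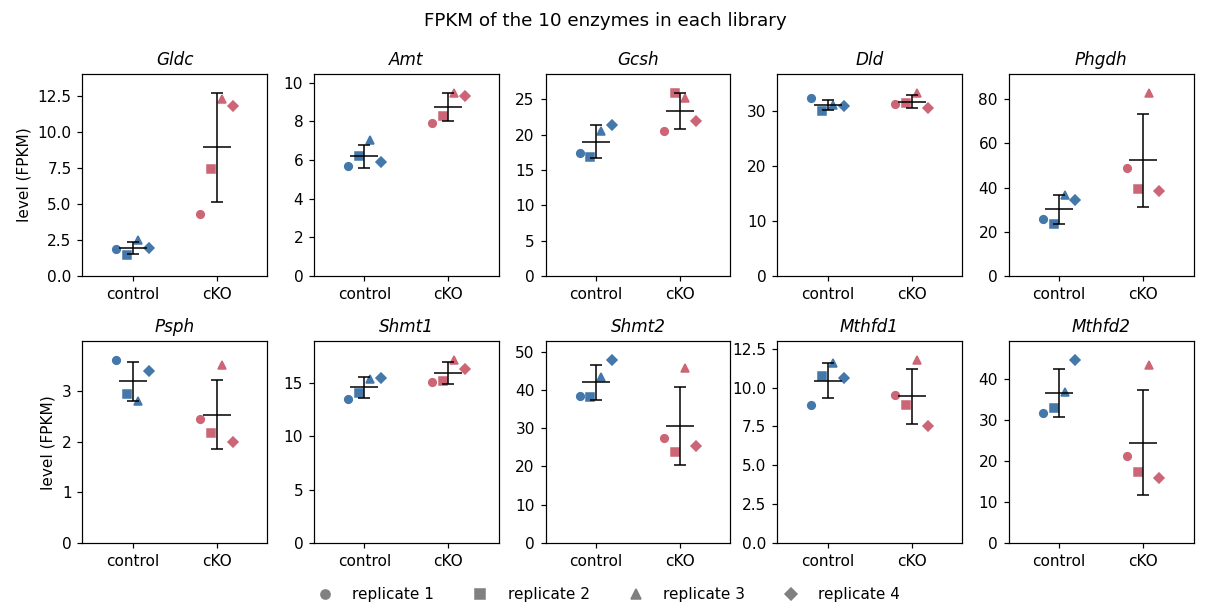
Level in FPKM (vertical axis, from 0) of each of the 10 enzymes in control and cKO libraries. Points are single libraries with a symbol for each replicate, and horizontal bars with whiskers are the mean and SD of 4 libraries. Gldc, Amt and Phgdh lie higher in all cKO libraries than in all controls, and cKO replicate 3 is the highest cKO point for each gene but Gcsh, by a wide gap for Phgdh, Shmt2 and Mthfd2.

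Phgdh, phosphoglycerate dehydrogenase, carries out the first committed step of serine synthesis. Its level was 25.7, 23.7, 36.7 and 34.4 FPKM in the control libraries. It was 49.0, 39.2, 83.1 and 38.3 FPKM in the cKO libraries. The groups did not overlap, but cKO replicate 4 lay close to control replicate 3, and cKO replicate 3 stood far above every other library. The means were 30.1 ± 6.38 FPKM in control and 52.4 ± 20.99 FPKM in cKO (SD, n = 4), with a log2 difference of 0.73 (SE 0.25). Without cKO replicate 3 the cKO mean was 42.2 ± 5.93 FPKM (SD, n = 3) and the log2 difference 0.49 (SE 0.17).

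Psph, phosphoserine phosphatase, releases serine in the last step. It did not follow Phgdh: its level was 3.63, 2.95, 2.81 and 3.40 FPKM in the control libraries and 2.45, 2.17, 3.52 and 1.99 FPKM in the cKO libraries. In cKO replicates 1, 2 and 4 it lay below all controls, and in cKO replicate 3 it lay within their range. The log2 difference was -0.26 (SE 0.13), and -0.39 (SE 0.10) without cKO replicate 3. Exons of Psph overlap those of Cct6a on the opposite strand by up to 452 bases, and strand-specific counting is not stated, so some reads may belong to the more abundant neighbour. Psat1, the aminotransferase between these steps and the most abundant tested gene of serine and glycine metabolism outside the members, stood at 31.5 ± 5.04 FPKM in control and 26.0 ± 8.54 FPKM in cKO (SD, n = 4; log2 difference -0.30, SE 0.20, limma adjusted p = 0.487). Without cKO replicate 3, its log2 difference was -0.50 (SE 0.12, limma adjusted p = 0.105), and without control replicate 4 it was -0.20. Within a library, the ratio of Phgdh to Psat1 was 0.876, 0.835, 1.26 and 0.881 in the control libraries and 2.03, 1.91, 2.16 and 1.86 in the cKO libraries. These ratios did not overlap between the groups, and cKO replicate 3 lay close to the other cKO libraries. They carry no test, since Phgdh was chosen with the group values in view.

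Shmt2 is the mitochondrial serine hydroxymethyltransferase and Shmt1 its cytosolic counterpart. Shmt2 measured 38.5, 38.2, 43.4 and 47.9 FPKM in the control libraries. It measured 27.4, 23.8, 45.8 and 25.4 FPKM in the cKO libraries. In cKO replicates 1, 2 and 4 it was below every control, whereas cKO replicate 3 was within the control range. The means were 42.0 ± 4.61 and 30.6 ± 10.2 FPKM (SD, n = 4), and the log2 difference was -0.49 (SE 0.19), or -0.69 (SE 0.10) without cKO replicate 3. Shmt1 ranged from 13.5 to 15.5 FPKM in control and from 15.1 to 17.2 FPKM in cKO. The groups overlapped for Shmt1, with a log2 difference of 0.12 (SE 0.07) that was 0.06 with each library scaled to the same sum. The differences of Shmt2 and Shmt1 had opposite signs, but that of Shmt1 was small and its sign is not established. The ratio of Shmt2 to Shmt1 was 2.87 ± 0.158 in control and 1.90 ± 0.523 in cKO (SD, n = 4). It did not overlap between the groups, with cKO replicate 3 at 2.66 just below the lowest control at 2.71. The ratio of Mthfd2 to Mthfd1, the matching pair of the next step, ran from 3.07 to 4.22 in control and from 1.94 to 3.68 in cKO, and the groups overlapped. The ratios of Mthfd2 to Shmt2 and of Gcsh to Dld overlapped as well.

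Mthfd2 is the mitochondrial dehydrogenase and cyclohydrolase that oxidises the folate-bound unit, and Mthfd1 is the cytosolic enzyme that carries these activities and a synthetase. Mthfd2 measured 31.8, 33.0, 36.7 and 44.7 FPKM in the control libraries. It measured 21.3, 17.2, 43.4 and 15.9 FPKM in the cKO libraries. The pattern was that of Shmt2, with cKO replicates 1, 2 and 4 below all controls and cKO replicate 3 within their range. The means were 36.5 ± 5.82 and 24.4 ± 12.8 FPKM (SD, n = 4). The log2 difference was -0.66 (SE 0.28), and -0.97 (SE 0.14) without cKO replicate 3, when the cKO mean was 18.1 ± 2.83 FPKM (SD, n = 3). Mthfd1 ranged from 8.87 to 11.6 FPKM in control and from 7.52 to 11.8 FPKM in cKO, and the groups overlapped (log2 difference -0.14, SE 0.13). Its log2 difference was -0.25 (SE 0.11) without cKO replicate 3 and -0.05 without cKO replicate 4. The ratio of Phgdh to Mthfd2 separated the groups in every library, at 0.809, 0.719, 1.00 and 0.770 in the control libraries and 2.30, 2.28, 1.92 and 2.42 in the cKO libraries. Phgdh and Mthfd2 stood in a different proportion in the cKO libraries, cKO replicate 3 included. The ratio divides a member higher in cKO by a member lower there, both chosen with these values in view. Its separation therefore carries no test. The ratios of Phgdh to Psph, Gldc to Amt and Amt to Dld did not overlap between the groups either.

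Of the 10 members, 3 did not overlap between the groups with cKO higher (Gldc, Amt and Phgdh), a pattern found in 6.10% of the 15143 genes tested, and 0 did not overlap with cKO lower, found in 4.60%. Nothing is read from these counts, because the contrast was used to choose the members. In control libraries the order of mean levels, compared per length as FPKM, was Shmt2, Mthfd2, Dld, Phgdh, Gcsh, Shmt1, Mthfd1, Amt, Psph and Gldc. Neighbours among the first 4 overlapped, and each later neighbour was separated in all 4 libraries. In cKO libraries Phgdh came first, separated from Dld, and Gldc moved from the last place to the place between Mthfd1 and Amt, overlapping both.

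The cKO replicate 3 library stood apart for a group of these genes. By the reads of the whole libraries it was not the most distant of the cKO group. The chi-square per degree of freedom was 23.78, 13.25 and 18.99 between replicate 3 and replicates 1, 2 and 4. It was highest between replicates 1 and 4, at 27.6. On the log2(FPKM + 1) scale cKO replicate 3 exceeded the mean of the other cKO libraries by 1.22 for Mthfd2, 0.97 for Phgdh, 0.82 for Shmt2, 0.68 for Gldc, 0.50 for Psph and 0.41 for Mthfd1. The excess was 0.15 for Gcsh, 0.14 for Amt, 0.14 for Shmt1 and 0.10 for Dld, beside a median of -0.0045 and an SD of 0.29 over all genes tested. Atf4 encodes a stress-induced transcription factor known to activate serine and one-carbon genes, and 6 genes outside the pathway (Atf4 and its targets Asns, Trib3, Chac1, Ddit3 and Sesn2) were examined with it. Trib3, a pseudokinase, measured 30.3, 29.5, 68.5 and 29.4 FPKM in the cKO libraries and from 35.5 to 57.7 FPKM in control. Chac1, a glutathione-degrading enzyme, measured 34.7, 29.8, 71.5 and 27.9 FPKM in the cKO libraries and from 43.0 to 62.9 FPKM in control. Both were highest of all 8 libraries in cKO replicate 3 and below every control in the other cKO libraries; Trib3, Chac1, Ddit3 and Asns were singled out after their values were seen. Asns, asparagine synthetase, showed the same pattern, at 35.6, 30.3, 56.9 and 30.2 FPKM in the cKO libraries and 35.8 to 47.6 FPKM in control. The log2 difference of Trib3 was -0.29, or -0.58 without cKO replicate 3, -0.17 without control replicate 3 and -0.18 without cKO replicate 2 or 4. That of Chac1 was -0.41, or -0.71 without cKO replicate 3 and -0.27 without cKO replicate 4, and that of Asns was -0.09, or -0.30 without cKO replicate 3. The Asns difference was -0.0029 without control replicate 4, and its sign turned without cKO replicate 2 (0.00089) and without cKO replicate 4 (0.0021). Ddit3, a stress-induced transcription factor, did not share this pattern, at 9.31, 9.77, 11.2 and 11.2 FPKM in the cKO libraries and 11.2 to 13.9 FPKM in control. The Ddit3 log2 difference was -0.31 (SE 0.09, limma adjusted p = 0.147), or -0.34 without cKO replicate 3. Its adjusted p ranged from 0.0475 to 0.286 over the alternatives. Atf4 itself, the most abundant of the 6, measured 305.2, 309.5, 391.5 and 345.9 FPKM in the cKO libraries and 325.5 to 420.4 FPKM in control, with cKO replicate 3 within the control range. Its means were 379.5 ± 43.6 FPKM in control and 338.0 ± 40.0 FPKM in cKO (SD, n = 4; limma adjusted p = 0.524). Sesn2, a stress-induced regulator of growth signalling, had the largest difference of the 6, of which 0 were higher and 2 lower at an unadjusted p under 0.05 (5 lower without cKO replicate 3), at -0.66 (SE 0.22, limma adjusted p = 0.192). Without cKO replicate 3 it was -0.89 with a limma adjusted p of 0.0466, within a range of 0.0466 to 0.360 over the alternatives. That library was high for several of these genes, so lower differences without it follow in part from leaving it out. The list was also chosen with earlier results of these data known. Of all 15143 genes tested, 1340 were higher and 1140 lower at that unadjusted threshold, or 1321 higher and 1194 lower without cKO replicate 3.

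**Figure D2:**
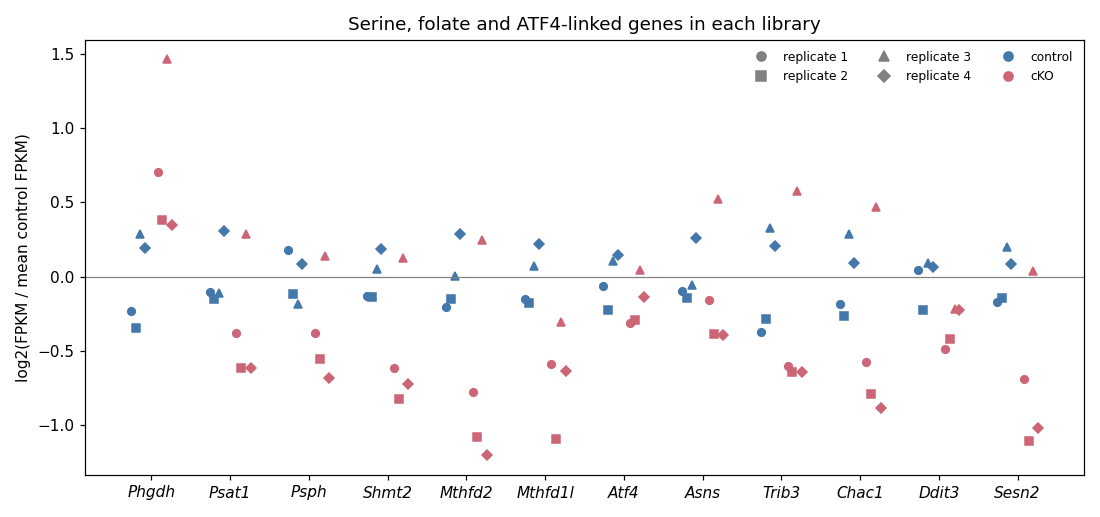
Log2 ratio of FPKM to the mean control FPKM (vertical axis) for serine, folate and ATF4-linked genes in each library. Points are single libraries, blue for control and red for cKO, with a symbol for each replicate. Apart from Phgdh, the cKO replicates 1, 2 and 4 lie below 0 for each gene, and cKO replicate 3 lies above them, by very little for Ddit3.

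The other genes of the pathway were examined with limma over all genes tested. Of 70 listed genes, 64 of the pathway and the 6 of the ATF4 list, 55 passed the filter, and 0 had an adjusted p under 0.05, a threshold passed by 0.892% of all genes (135, of which 89 were higher and 46 lower in cKO). At an unadjusted p under 0.05, limma gave 10 listed genes higher and 6 lower, 16 of 55, and 16.4% of all genes passed (1340 higher and 1140 lower). Without cKO replicate 3 the split was 7 higher and 13 lower, beside 1321 higher and 1194 lower over all genes. Leaving the ATF4 list aside, it was 10 higher and 4 lower of 49 tested, and 7 higher and 8 lower without cKO replicate 3. With each library scaled to the same sum, the all-gene split was 70 higher and 62 lower after adjustment and 789 higher and 1657 lower without it, and the listed genes were 8 higher and 7 lower without it. The median log2 difference was -0.02 over the listed genes and 0.00072 over all genes. On recovered reads, limma-voom gave 2 listed genes with an adjusted p under 0.05, Pdha1 and Chdh. A block that set replicates 1 and 2 apart from 3 and 4 gave 3 listed genes, Pdha1, Ddit3 and Mthfd1l, beside 442 of all genes. With a library left out, the adjusted count over all genes ranged from 0 without control replicate 4 to 78 without cKO replicate 1. Leaving out any of the 8 libraries lowered the count by more than 1.5 times.

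Lipoate, the cofactor of Gcsh, is made and attached by Lias, Lipt1, Lipt2 and Nfu1, of which 3 were higher at an unadjusted p under 0.05 and 0 passed after adjustment. Lias, the lipoate synthase and the most abundant of them, was 3.63 ± 0.153 FPKM in control and 4.34 ± 0.408 FPKM in cKO (SD, n = 4; limma adjusted p = 0.216). Nfu1, an iron-sulfur carrier, had the largest difference of these with all libraries, 0.24 (SE 0.08, limma adjusted p = 0.198). Without control replicate 1 the Nfu1 difference was 0.18, below that of Lias at 0.22. Among 9 subunits of the other complexes that use Dld, 1 was higher and 0 lower at that unadjusted threshold. Pdha1, a subunit of pyruvate dehydrogenase, was the most abundant and differed most. It was 43.3 ± 1.49 FPKM in control and 56.0 ± 4.83 FPKM in cKO (SD, n = 4), without overlap, with a log2 difference of 0.36 (SE 0.07) and a limma adjusted p of 0.0592, which ranged from 0.0283 to 0.151 over the alternatives.

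In the folate list, 1 of 15 tested genes was higher and 3 were lower at an unadjusted p under 0.05. Folr1, a folate receptor and the most abundant of them, was 19.9 ± 3.90 FPKM in control and 27.2 ± 7.32 FPKM in cKO (SD, n = 4; limma adjusted p = 0.326), with a log2 difference of 0.42 that was 0.26 without cKO replicate 4. Folr2, a folate receptor of macrophages, had the largest difference with all 8 libraries, -0.49 (SE 0.22, limma adjusted p = 0.305). Without cKO replicate 3 it was -0.29 (SE 0.16) and no longer the largest, and it was -0.95 with a pseudocount of 0.1 and -1.03 with limma-voom. Mthfd1l, the mitochondrial formate-releasing enzyme that acts after Mthfd2, measured 2.57 ± 0.342 FPKM in control and 1.66 ± 0.357 FPKM in cKO (SD, n = 4), without overlap (limma adjusted p = 0.123, within a range of 0.0496 to 0.259 over the alternatives, the lowest with a block that sets replicates 1 and 2 apart from 3 and 4). Its log2 difference was -0.43 with all libraries and -0.50 without cKO replicate 3; it is named after its values were seen. In the methionine cycle list, 2 of 7 tested genes were higher and 0 lower at an unadjusted p under 0.05, and 2 higher and 1 lower without cKO replicate 3. Chdh, a choline dehydrogenase, had the largest difference there, 0.57 (SE 0.13, limma adjusted p = 0.0767, within a range of 0.0425 to 0.167 over the alternatives), and Ahcy, the most abundant, differed by -0.03 (SE 0.10, limma adjusted p = 0.906), or by -0.10 without cKO replicate 3. In serine and glycine metabolism outside the members, 2 of 7 tested genes were higher and 0 lower at that threshold, and 0 were higher and 1 lower without cKO replicate 3. Gnmt, which uses glycine as a methyl acceptor, differed most with all 8 libraries on the main scale, by 0.39 (SE 0.15, limma adjusted p = 0.253). Without cKO replicate 3 its difference was 0.26 (SE 0.12), smaller than that of Psat1. It was also smaller with each library scaled to the same sum (0.34 against -0.36) and without control replicate 2 (0.31 against -0.35). Without control replicate 3, another gene of the list came just above Gnmt (0.42 against 0.41). Among 7 serine and glycine carriers, 1 was higher and 1 lower at that threshold, and 1 higher and 2 lower without cKO replicate 3. Slc38a2 was the most abundant at 75.8 ± 3.26 FPKM in control and 68.5 ± 6.31 FPKM in cKO (SD, n = 4; limma adjusted p = 0.387), and Slc1a5 differed most, by -0.37 (SE 0.22, limma adjusted p = 0.453). Without cKO replicate 1, where Slc1a5 was low, its difference was -0.14 and no longer the largest. Slc6a9, lower at an unadjusted p under 0.05, differed by -0.33 (SE 0.10, limma adjusted p = 0.153). It exceeded Slc1a5 with a pseudocount of 0.1 (-0.52 against -0.39) and with limma-voom (-0.57 against -0.40). The same held without control replicate 1 (-0.32 against -0.26) and without control replicate 3 (-0.38 against -0.36). Slc6a9 is named after its values were seen.

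Marker genes of the cell types in the preparation are given beside these results. The summed level of 7 milk protein genes was 4039, 4456, 5544 and 5910 FPKM in the control libraries and 8974, 9762, 11458 and 16025 FPKM in the cKO libraries. The groups did not overlap, Csn1s2a was the most abundant, and 0 of the 7 were listed at 0 in every library. Of the 7 genes, 6 were higher in every cKO library than in every control, a pattern found in 6.10% of all genes tested. Lalba overlapped, and at 14.5 FPKM in cKO replicate 3 it was below every control (15.9 to 30.5 FPKM). This gene is named after its values were seen. The part of the milk protein shift in the higher Gldc, Amt and Phgdh levels was not tested. For 6 adipocyte genes the sum was 1.74 to 3.50 FPKM in control and 5.18, 23.6, 7.96 and 28.8 FPKM in the cKO libraries, with Cfd the most abundant, 3 of 6 at a mean of at least 0.5 FPKM and 0 listed at 0 in every library. The sum was higher in every cKO library and was mostly Cfd. Of the 6 genes, 3 were higher in every cKO library than in every control, beside 6.10% of all genes tested. Adipoq and Plin1 overlapped between the groups, and in cKO replicate 3 Adipoq was within the control range and Plin1 below it; both are named after their values were seen. The part of these genes in the results was not tested. The sum over 9 myoepithelial genes was 1983, 2078, 2664 and 2701 FPKM in the control libraries and 1808, 2109, 2504 and 2449 FPKM in the cKO libraries, with Acta2 the most abundant, and the sum over 6 luminal genes ran from 4487 to 5686 FPKM in control and from 4387 to 5685 FPKM in cKO, with Krt8 the most abundant. Both sums overlapped between the groups, but single genes within them did not all follow. Among the myoepithelial genes, Trp63 was lower in every cKO library than in every control, at 2.45 ± 0.594 FPKM in cKO and 3.58 ± 0.576 FPKM in control (SD, n = 4). Oxtr was higher in every cKO library, at 5.65 ± 1.71 FPKM beside 2.62 ± 0.329 FPKM in control (SD, n = 4). Krt14, whose promoter drives the transgene, was 752.6 ± 93.7 FPKM in control and 577.1 ± 88.9 FPKM in cKO (SD, n = 4), with overlap. Elf5, a luminal transcription factor, was higher in every cKO library, at 38.5 ± 8.02 FPKM beside 21.3 ± 3.91 FPKM in control (SD, n = 4). These 4 genes are named after their values were seen, and their part in the results was not tested.

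In cKO replicate 3, which was high for Mthfd2 and Phgdh, several marker sums were also at the edge. The sums were 299.4 FPKM for 6 fibroblast genes, 54.6 FPKM for 5 endothelial genes and 7.28 FPKM for 6 leukocyte genes, the lowest of the 8 libraries in each case. The leukocyte sum also separated the groups, by a narrow gap, at 24.7, 14.2, 32.5 and 13.0 FPKM in the control libraries and 12.5, 11.3, 7.28 and 11.4 FPKM in the cKO libraries. Of the 6 genes, 3 were lower in every cKO library than in every control, a pattern found in 4.60% of all genes tested. The sum of 8 proliferation genes was 98.3, 113.3, 141.7 and 105.6 FPKM in the cKO libraries and 121.9 to 141.7 FPKM in control. Of these lists the most abundant genes were Col3a1, Cdh5, Csf1r and Pcna, and 0 genes were listed at 0 in every library. Their part in the cKO replicate 3 values, and that of the leukocyte genes in the group differences, was not tested. Of 5 hepatocyte genes, a cell type with high glycine cleavage, Ttr was listed at 0 in every library and the sum was at most 0.599 FPKM.

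By the Pearson r of log2(FPKM + 1) centred within each group, the 5 genes most like Gldc over the 8 libraries, of 12922 with a mean FPKM of at least 1, were Fam189a2 (r = 0.992), Exosc10 (0.987), 2410004B18Rik (0.985), Stambpl1 (0.981) and Scx (0.977). These values describe how the libraries vary within a group and carry no test. Fam189a2 was 3.14 FPKM on average in control and 5.34 FPKM in cKO, while Exosc10 was 17.7 and 16.3 FPKM.

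In GRCm38 coordinates, Amt lies at chr9:108296853-108302302, Gcsh at chr8:116981810-116993537, Dld at chr12:31331277-31351453, Phgdh at chr3:98313170-98339990 and Psph at chr5:129765558-129787449. Shmt1 lies at chr11:60788104-60811718, Shmt2 at chr10:127517123-127522444, Mthfd1 at chr12:76255298-76319803 and Mthfd2 at chr6:83305691-83325908. Amt and Mthfd1 are on the plus strand and the other members on the minus strand. Exons of Shmt1 overlap those of Smcr8 by up to 184 bases, those of Shmt2 overlap Ndufa4l2 by up to 32 and those of Mthfd1 overlap Gm47525 by up to 37, each on the opposite strand, so a few of their reads may be shared. The table also lists 2 pseudogenes of Gcsh and 2 of Phgdh, all at 0 in every library.

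Promoters of all 10 members are in the RefSeq table (GRCm38.p6), which gives bases upstream of each start, and 5 motifs were searched on both strands in the 250 bases before it. CCAAT, the box bound by NF-Y, was present in 9 of 10 members and in 33.8% of all 32851 promoters. The letters GGGCGG were in 6 of 10 members and 32.7% of all, TTCNNNGAA in 1 of 10 (Shmt2) and 7.02% of all, CACGTG in 0 of 10 and 6.02% of all, and TGATGNAA, a core of elements bound by ATF4, in 0 of 10 and 3.45% of all. None of these motifs contains another. A match is no evidence of binding, and its absence says only that the letters are not in this window. The upstream sequences of Gldc, Phgdh, Mthfd2 and Shmt2, the members with the largest absolute log2 differences, are printed to show the CCAAT letters (either strand) in capitals. They lie on the minus strand at chr19:30175442-30175691 for Gldc, chr3:98339991-98340219 for Phgdh, chr10:127522445-127522694 for Shmt2 and chr6:83317607-83317854 for Mthfd2, printed 5′ to 3′ without bases in an annotated exon, which leaves out 21 bases of the Phgdh window, with a CCAAT that crosses the edge, and 2 of the Mthfd2 window. The Mthfd2 window lies before the start of its principal transcript (chr6:83305691-83317606) but inside the gene's interval, in an intron of a partial transcript that starts further upstream.
Gldc: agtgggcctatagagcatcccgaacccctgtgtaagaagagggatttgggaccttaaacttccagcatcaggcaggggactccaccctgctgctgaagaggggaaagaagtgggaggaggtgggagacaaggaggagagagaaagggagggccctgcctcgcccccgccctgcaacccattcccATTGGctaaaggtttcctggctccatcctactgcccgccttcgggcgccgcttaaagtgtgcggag
Phgdh: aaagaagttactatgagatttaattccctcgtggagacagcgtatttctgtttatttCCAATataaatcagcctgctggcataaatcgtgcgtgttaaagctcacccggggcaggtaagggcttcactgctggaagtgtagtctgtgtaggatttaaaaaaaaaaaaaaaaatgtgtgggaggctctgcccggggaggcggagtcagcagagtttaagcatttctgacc
Shmt2: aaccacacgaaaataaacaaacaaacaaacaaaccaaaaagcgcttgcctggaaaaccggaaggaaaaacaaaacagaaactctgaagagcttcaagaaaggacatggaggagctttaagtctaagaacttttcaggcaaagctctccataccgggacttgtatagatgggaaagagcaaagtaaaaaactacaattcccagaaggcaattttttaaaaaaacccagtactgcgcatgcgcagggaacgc
Mthfd2: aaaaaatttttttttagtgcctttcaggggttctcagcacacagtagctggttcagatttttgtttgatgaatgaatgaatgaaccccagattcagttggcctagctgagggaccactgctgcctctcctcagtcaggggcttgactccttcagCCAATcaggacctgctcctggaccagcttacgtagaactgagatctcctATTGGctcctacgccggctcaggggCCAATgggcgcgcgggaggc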

How the data were processed

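Mammary epithelial RNA of 4 control and 4 cKO mice was sequenced by the authors, who used FastQC for read quality, Hisat2 for mapping to GRCm38 and DESeq2 for testing. The submitters' processing notes name StringTie 1.3.3b, featureCounts 1.5.0-p3 and the build mm9; the annotation release is not given in the sources used here. The deposited table holds FPKM calculated by the authors, with gene lengths and coordinates as other deposited columns. Of its genes, 55394 are in GENCODE vM21 (GRCm38), 99.68% with the same coordinates.

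Each deposited FPKM times gene length was a whole multiple of 1 step per library (100% of values, tolerance 0.01), which gave the reads; the implied library sizes match median-of-ratios size factors. Genes whose mean reached 0.5 FPKM were fitted with limma 3.58.1 in R 4.3.3 on log2(FPKM + 1) (empirical Bayes with trend, Benjamini-Hochberg over 15143 genes). The fit was tried on simulated reads with independent libraries and the same relative spread for all genes. The real libraries varied by replicate set, so that trial does not show how the fit performs on them. Standard errors of member differences come from this fit. Other steps used Python 3.11.15, pandas 2.3.3 and matplotlib 3.10.9. Of 2 entries with a shared name, the more abundant was kept. Named genes were the members, pathway genes passing the test, the most abundant and the most different gene of each pathway list, and the 5 genes most like Gldc; others are said to be named after their values were seen. The members and lists were chosen with earlier results of these data known. Alternatives changed the pseudocount, filter, scaling, trend, block and model, or left out 1 library.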

Additional observations from a re-analysis of the deposited data

Results flagged for a closer look

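Of 122 groups of 4 values examined, 9 held a library far from the other 3; chance gives about 1 in 20 groups, or 6.1 here. Of the 9, 4 were cKO replicate 3: Shmt2 at 45.8 FPKM beside 27.4 in the next library, Trib3 at 68.5 beside 30.3, Chac1 at 71.5 beside 34.7, and the ratio of Mthfd2 to Mthfd1 at 3.68 beside 2.23. Control replicate 4 was far above the other controls for Psat1, at 39.0 FPKM beside 29.3, and for reads on genes, at 18778823 beside 16642619. The ratio of Phgdh to Psat1 in control replicate 3 was 1.26 beside 0.881. Pdha1 in cKO replicate 4 was 63.2 FPKM beside 54.3, and Slc1a5 in cKO replicate 1 was 10.6 FPKM beside 20.1.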

How the results depend on the processing

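The Gldc log2 difference was between 1.51 and 1.95 with a library left out and between 1.63 and 2.11 under the other alternatives, against 1.68. The log2 differences of the other members moved by less than 1 SD of the replicates, except that of Dld, which was -0.03 on the same-sum scale. The 135 genes with an adjusted p under 0.05 became 10 with no filter on low values, where more genes were tested. They became 442 with a block that set replicates 1 and 2 apart from 3 and 4, and 252 with limma-voom on recovered reads. The cause was not tested for any of these changes. Without control replicates 1 to 4 in turn the count was 6, 1, 9 and 0, and without cKO replicates 1 to 4 it was 78, 11, 77 and 12, with fewer samples in each fit. The 0 genes of the pathway and ATF4 lists became 3 with the block of replicate sets (Pdha1, Ddit3 and Mthfd1l), 2 with limma-voom, and 0 to 1 with a library left out (Sesn2 without cKO replicate 3); the cause was not tested. With a library left out, the log2 difference ranged from -0.10 to 0.018 for Ahcy and from -0.30 to 0.0021 for Asns.

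Blocking on the replicate number left 50 genes and 0 listed genes with an adjusted p under 0.05. Same-numbered libraries deviated together with r of 0.137, 0.11, 0.116 and 0.080, and 1 of 4 control libraries was most like its own number, so the numbers were not taken to pair the mice. The mean r was 0.13 between libraries of the same replicate set but other numbers, 0.11 between the same numbers and -0.12 across the sets. The lowest read numbers in a library were 153 for Gldc, 155 for Psph and 239 for Amt, and at least 459 for the other members, so the 4 mice per group limit the precision.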
